A study of Arabidopsis lyrata with 3 samples.

Results

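Of the 2091 SEP3 windows of highest score in the second of 2 chromatin immunoprecipitation (ChIP) libraries of Arabidopsis lyrata, those of about 2.8 or more, 645 (30.8%) met the first library only in windows that scored under 4. These 645 are called low-partner windows here. They were chosen by score from the window lists: a replicate 2 window had to reach the score of rank 2091, about 2.8, and to overlap at least 1 replicate 1 window by 1 bp or more, and the highest scoring of these partners had to lie under 4. Another 1358 windows had a best partner of 4 or more (high-partner windows), and 88 overlapped no replicate 1 window. The whole lists hold 64504 windows in replicate 2 and 93693 in replicate 1.

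SEPALLATA3 (SEP3) is a MADS-domain transcription factor that joins other MADS-domain proteins in complexes which specify floral organs. These complexes bind DNA at CArG boxes, often at paired sites, and in A. thaliana SEP3 is known to bind near many genes of flower development. ChIP followed by sequencing recovers the DNA that a protein holds, and a window is a stretch where the authors' procedure found such DNA enriched, with a summit at its highest point.

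Both ChIP libraries and the input DNA library came from wild-type A. lyrata inflorescences, with buds of floral stage 1 to 10 or 11, and SEP3 was precipitated with an antibody to a peptide taken from the A. thaliana protein. Vernalisation, the long cold that prepares many plants to flower, lasted 7 to 10 weeks for every plant, and long days at 18 to 22 °C followed for bolting. Replicate 1 and the input came from plants vernalised at a constant 8 °C under light for 16 h and dark for 8 h. For replicate 2 the days were at 8 °C and the nights at 4 °C, both 12 h long. With 1 ChIP library per cold treatment, treatment and library cannot be told apart, no difference between the libraries has a replicate error, and no p-value is given. Inflorescences are bulk tissue, so binding in fewer cells and weaker binding per cell cannot be told apart either. The scores are the authors' own. No source used here gives their formula, and their scale may differ between the libraries. Read depth is unknown, and the 95% Wilson intervals below cover counting error over windows only, although neighbouring windows are not independent.

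Most low-partner windows scored just above the lower limit and met partners not far under 4. Their replicate 2 scores ran from about 2.8 to 19.93 with a median of 3.21, and their best partners scored 1.01 to just under 4 with a median of 3.08. These values chose the windows and are given as a description. Of the 645 partners, 357 scored 3 or more, 200 scored 2 to under 3, and 88 scored under 2. A score of 4 was itself high in replicate 1, where 2541 of all windows (2.71%) reached it, and 439 of the partners (68.1%) stood among the strongest 10% of that list. The replicate 2 score was the higher in 409 windows, equal in 1 and the lower in 235. By place in the own list, low-partner windows stood 0.122 to 3.10% from the top of replicate 2, and their partners 2.71 to 99.4% from the top of replicate 1 with a median of 6.25%. By that measure 634 of the 645 stood higher in replicate 2 and 11 did not. Both comparisons use the scores that chose the windows, so they describe the choice only.

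A score at least 2 times that of the partner was found in 81 low-partner windows, 61 of them with a partner under 2. Over all 48068 replicate 2 windows with a partner, the replicate 2 score was above the partner's in 8.92% and at least 2 times as high in 0.266%. The rule selects on this very ratio, so nothing is read from the members' larger shares. The windows thinned out towards high scores, from 197 of 385 replicate 2 windows (51.2%) under 3 to 6 of 165 (3.64%) at 10 or more. Only 2 were among the 100 strongest of replicate 2.

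The limits of the rule cut through a continuous range. The 35 windows with a partner of 3.9 to under 4 had a median replicate 2 score of 3.21, and the 26 windows just outside, with partners of 4.01 to 4.07, had a median of 3.18. At the lower limit, 49 low-partner windows held the lowest score of the class, and the next lower replicate 2 score with a partner under 4 was 2.73.

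**Figure D1:**
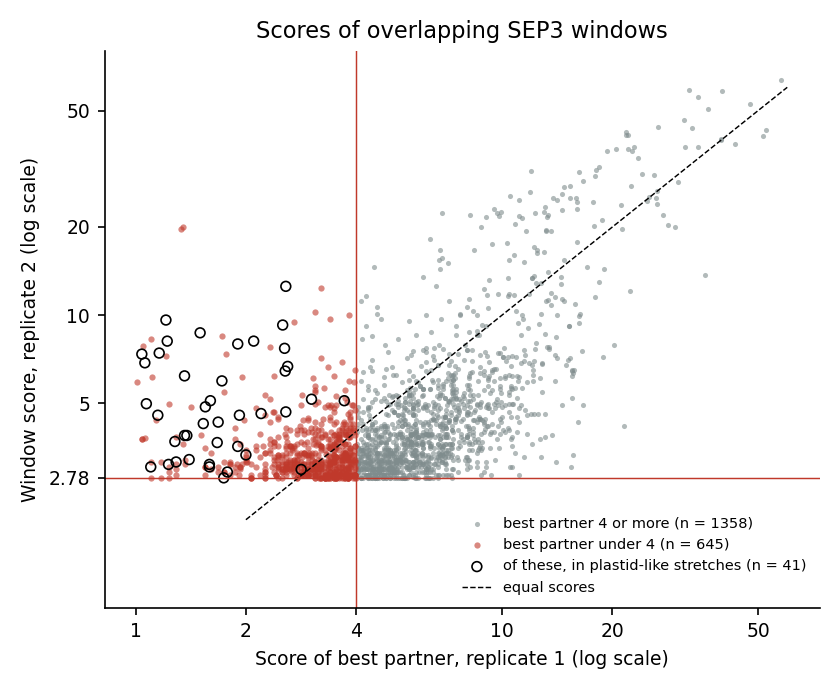
Replicate 2 score of each window (y, log scale) against the score of its best replicate 1 partner (x, log scale) for the 645 windows with a best partner under 4 and the 1358 with one of 4 or more; each point is a window, the solid lines are the limits of about 2.8 and 4, the dashed line marks equal scores and circles mark windows in the plastid-like stretches. Most low-partner points crowd near the corner of both limits, and few lie far to the upper left.

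The summits, whose positions the rule did not use, lay close together in the libraries. The distance from the summit of a low-partner window to that of its best partner ran from 0 to 3654 bp with a median of 49 bp, and 567 of 645 (87.9%, 85.2 to 90.2%) were within 200 bp. High-partner windows had a median of 34 bp, with 94.0% (92.6 to 95.1%) within 200 bp. Part of the closeness is built in, because the windows had to overlap and had a median width of 539 bp.

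Summit distances were short at every partner strength, though overlap of narrow windows itself limits the distance. For partners under 2 the median widths were 431.5 bp for the replicate 2 window and 123.5 bp for the partner. Replicate 1 windows cover 39.7 Mb of the 196 Mb of scaffolds, so overlap can also arise by position alone. No expected distance was computed. The median distance was 46 bp for partners of 3 to under 4, 53 bp for 2 to under 3 and 65.5 bp for those under 2. Within 200 bp lay 89.6, 87.0 and 83.0% in that order, with overlapping intervals (86.0 to 92.4%, 81.6 to 91.0% and 73.8 to 89.4%). At replicate 2 scores under 4, where both kinds of window are common, 88.7% of 514 low-partner and 91.2% of 680 high-partner windows had summits within 200 bp. At scores of 4 or more the shares were 84.7% of 131 (77.6 to 89.9%) and 96.8% of 678 (95.1 to 97.8%), and these intervals did not overlap. Summits at the very same base were seen in 13 low-partner windows, and 16 pairs were over 1000 bp apart.

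**Figure D2:**
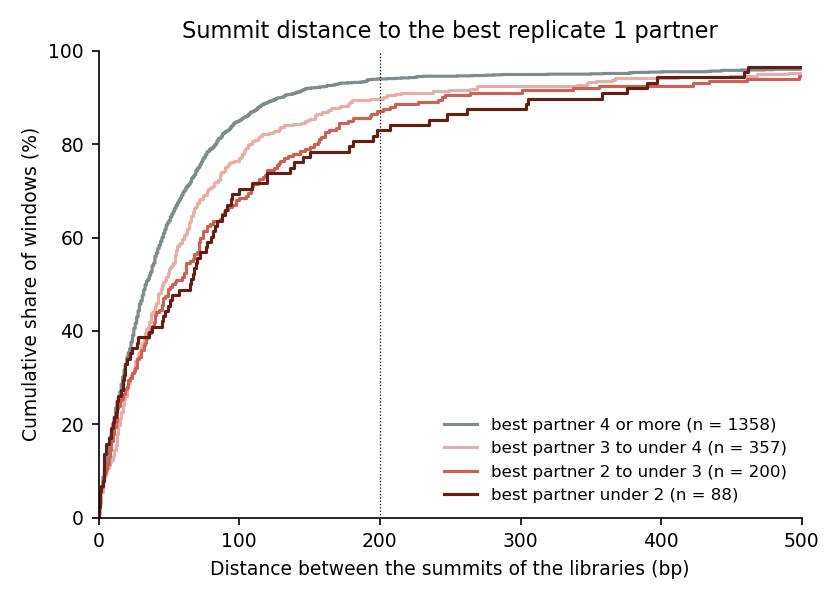
Cumulative share of windows (y, %) against the distance between the replicate 2 summit and the summit of the best replicate 1 partner (x, bp, cut at 500), by partner score; the dotted line marks 200 bp. At 50 and at 200 bp the curves of the 3 low-partner classes lie below that of the high-partner windows, and all 4 stand above 80% at 200 bp.

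Replicate 1 partners were usually broad, except the weakest. Partners of low-partner windows had a median width of 695 bp, those of high-partner windows 1095.5 bp, and 57.8% of the former were wider than the replicate 2 window they met. Among partners of 3 to under 4 the share was 74.8% and the median width 894 bp. Among those under 2 it was 4.55%, the median width was 123.5 bp, and 69 of 88 (78.4%) lay wholly inside the replicate 2 window. In 14 of these 88 the partner spanned 10 bp or less. The partners' scores chose the windows, and whether width follows score within a list was not tested.

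Almost every low-partner window had a partner of its own. The 645 windows had 641 different best partners, and 4 partners were shared by 2 windows each. A single replicate 1 window was met in 611 cases, 2 in 29, 3 in 4 and 4 in 1. A replicate 1 summit of 4 or more lay within 5000 bp of 85 (13.2%, 10.8 to 16.0%) and within 10000 bp of 189 (29.3%, 25.9 to 32.9%). For windows without a partner the shares were 5.68% (2.45 to 12.6%) and 13.6% (7.98 to 22.3%). The 2541 replicate 1 windows of 4 or more lie on 196 Mb of scaffolds. No share expected by position alone was computed, so nothing is read from these shares. Whether low-partner windows are flanks of strong replicate 1 sites was not tested.

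Low-partner windows were spread over the genome, with 1 exception. They occurred on all 9 scaffolds and in 180 of 201 bins of 1 Mb. With summits within 10000 bp joined they fell into 572 groups, of which 536 held 1 window, 30 held 2, 4 held 3 and 1 held 4. The remaining group held 33 windows in 57.7 kb of scaffold 2, from 8752098 to 8809838. The bin of 1 Mb that holds it had 37 low-partner windows, and no other bin had more than 9.

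The share of replicate 2 windows with a low partner was similar on most scaffolds. On scaffolds 1 to 8 it ran from 24.9% (19.6 to 31.1%) on scaffold 4 to 37.7% (31.9 to 43.8%) on scaffold 2. On the short scaffold 9 it was 10 of 19 (52.6%, 31.7 to 72.7%). Without the stretches described next, scaffold 2 fell from 95 to 59 low-partner windows and to a share of 29.8% (23.9 to 36.5%), and scaffold 7 then had the highest share of the large scaffolds, 33.9%.

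**Figure D3:**
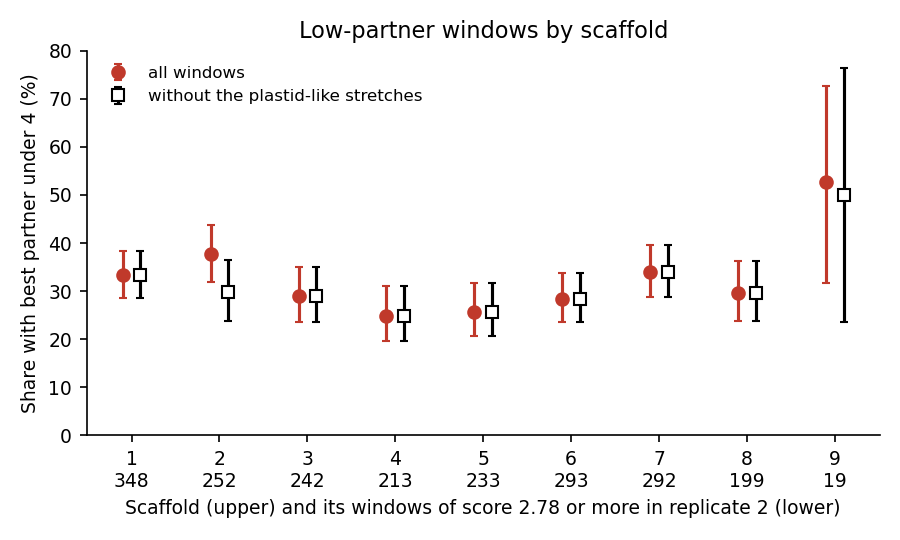
Share of replicate 2 windows of score about 2.8 or more with a best partner under 4 (y, %) by scaffold (x, with the number of windows), for all windows and without the plastid-like stretches; points are shares and bars 95% Wilson intervals. Without the stretches scaffold 2 moves from 37.7 to 29.8% and the 9 intervals overlap.

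The dense group on scaffold 2 lay among transfer RNA (tRNA) genes spaced as in the plastid genome. The plastid genome is the DNA of chloroplasts, and plant nuclear genomes are known to hold copies of parts of it. Of 519 pairs of neighbouring tRNA genes on the scaffolds, 20 lay 200 to 20000 bp apart at a distance within 50 bp of that between 2 plastid tRNA genes for the same amino acids, in either order. Of these 20, 18 formed 3 runs of at least 2 pairs, called plastid-like stretches here and taken with 20 kb on either side. The stretches were defined after the windows had been seen, and no sequence was compared.

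The larger stretch on scaffold 2 held 9 such pairs, none more than 14 bp from the plastid distance. TRNAW-CCA and TRNAF-GAA stood 18296 bp apart, and plastid trnF and trnW 18308 bp. TRNAF-GAA and TRNAT-UGU stood 2079 bp apart, exactly as plastid trnT and trnF do. TRNAC-GCA and TRNAR-UCU stood 17893 bp apart, against 17897 bp in the plastid. A further stretch on scaffold 2 held 7 pairs, and the stretch on scaffold 9 held 2, where TRNAN-GUU and TRNAR-ACG stood 715 bp apart as in the plastid.

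These 3 stretches make up 0.118% of the scaffold length and held 41 of the 645 low-partner windows (6.36%), 3 of 1358 high-partner windows (0.221%) and 19 of the 88 windows without a partner (21.6%). The larger scaffold 2 stretch had 34 low-partner windows, with replicate 2 scores from about 2.8 through a median of 4.55 to 12.54. Their partners scored 1.06 to 3.71 with a median of 1.64. In that stretch replicate 2 had 77 windows with a median score of 3.21, of which 50 were among the 2091 of highest score, and replicate 1 had 61 windows with a median of 1.60, of which 2 reached 4. The other stretches did not show a higher replicate 2 median over all windows: it was 1.26 against 1.29 in the further stretch on scaffold 2, and 1.20 against 1.54 in that on scaffold 9. In the larger stretch 29 of the 34 low-partner summits were within 200 bp of the partner's, with a median distance of 27.5 bp. Overlap limits this distance where windows are narrow, such as the named windows of 126, 186 and 196 bp there. No expected value was computed.

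The stretch on scaffold 9 had 5 low-partner windows, with scores of 2.91 to 8.70 and partners of 1.5 to 2.6, and 2 of the 5 had summits within 200 bp of the partner's (median distance 305 bp). The further stretch on scaffold 2 had 2, which scored 4.98 and 7.36 against partners of 1.07 and 1.04. In all, 29 of the 41 low-partner windows in the stretches had a partner under 2, and the other 59 windows with such a partner lay elsewhere. Of the 56 low-partner windows that scored 5 or more, 18 were in the stretches. The part of plastid DNA in these scores was not tested.

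**Figure D4:**
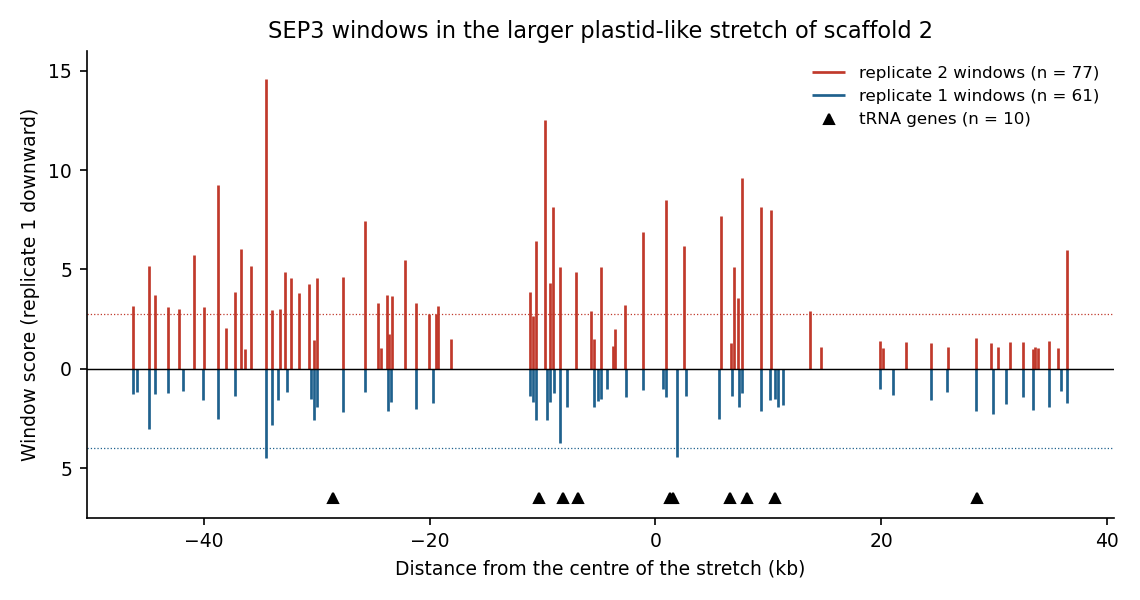
Score of each window (y) at its summit (x, kb from the centre of the stretch) in the larger plastid-like stretch of scaffold 2, with 77 replicate 2 windows drawn upward and 61 replicate 1 windows downward; dotted lines mark about 2.8 and 4, and triangles mark 10 tRNA genes. Replicate 2 windows reach that limit at 50 places, where replicate 1 reaches 4 at 2.

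The end of scaffold 3 showed a like pattern without tRNA genes of that spacing. Its last 200 kb held 6 low-partner windows, 14 windows without a partner and no high-partner window. The 6 scored 5.89 to 19.62 with a median of 7.21, and their partners 1.01 to 1.95 with a median of 1.22. Across scaffolds 1 to 8, 25 of 635 low-partner windows (3.94%, 2.68 to 5.75%) lay within 200 kb of a scaffold end. The share was 1.18% (0.729 to 1.91%) for high-partner windows and 19% (16 of 84, 12.1 to 28.7%) for windows without a partner. The end of scaffold 3 alone gave 14 of these 16 and 6 of the 25, so the shares do not describe scaffold ends in general. The distance was chosen after the windows at the end of scaffold 3 had been seen.

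By the rule for single windows, 20 are named: the 10 of highest replicate 2 score, the 10 of highest ratio to the partner, 3 of which are in both, and 3 with most partners, where windows with equal numbers of partners were taken by score. Of these 20, 9 lay in the plastid-like stretches and 3 inside an annotated gene. Coordinates are those of the Araly1 build named by the files, and the gene table gives the neighbours a class but no function.

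The pair of highest score stood far above the others. The window on scaffold 2 from 10716855 to 10717271 scored 19.93 in replicate 2 (rank 79) and met a partner of 127 bp that scored 1.35, with summits 81 bp apart. Its summit was 2676 bp from LOC9323073, a protein-coding gene. The window on scaffold 3 from 24439563 to 24440092 scored 19.62 and met a partner of 1 bp that scored 1.33, with summits 376 bp apart. Its own summit lay 929 bp from the long non-coding RNA gene LOC110230181. It was also 23204 bp from the end of scaffold 3, so the window is 1 of the 6 described there. Both scores were nearly 15 times the partner's, with ratios of 14.76 and 14.75, and both windows were outside the plastid-like stretches. Both partners scored below 1.42, the median of the replicate 1 list, whose lowest score was 1.01.

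The next windows outside those stretches had stronger partners. On scaffold 1, the window from 14714595 to 14715371 scored 12.36 against 3.21, with summits 468 bp apart and no gene within 7396 bp. On scaffold 6, the window from 19946927 to 19947739 scored 10.23 against 3.08 with summits 6 bp apart, 1480 bp from LOC9308557. On scaffold 1, the window from 26043253 to 26043685 scored 9.49 against 2.70 with summits 38 bp apart, 1129 bp from LOC9330290. In the last 2 of these the libraries marked nearly the same position, outside a protein-coding gene.

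Scaffold 7 gave 2 of the named windows, and their partners were the strongest among the 20. The window from 19158742 to 19159298 scored 10.04 against 3.83 with summits 22 bp apart, and its summit lay inside LOC110226155, a protein-coding gene, 18 bp from the gene's end. The window from 22753782 to 22754403 scored 9.68 against 3.40 with summits 412 bp apart, 2412 bp from LOC9306807. These 2 windows differ in summit distance although their scores are alike.

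Another 3 windows outside the stretches were named for their ratio, and their partners spanned 1 or 2 bp. The scaffold 3 window from 24346479 to 24347043 scored 8.27 against 1.10, 132 bp from the long non-coding RNA gene LOC110230180. Its summit was 116025 bp from the scaffold end, so it too is 1 of the 6 windows described there. The scaffold 4 window from 4063 to 4526 scored 7.85 against 1.05 and lay 22396 bp from its nearest gene and 4435 bp from a scaffold end. The scaffold 8 window from 7613849 to 7614619 scored 7.24 against 1.21, with its nearest gene 37802 bp away. All 3 partners scored below 1.42, the median of the replicate 1 list.

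In the plastid-like stretches, 3 named windows scored above 9. The window on scaffold 2 from 8788570 to 8788840 scored 12.54 against 2.57 with summits 193 bp apart, 412 bp from TRNAF-GAA, a tRNA gene. The window from 8805981 to 8806106 scored 9.62 against 1.21 with summits 12 bp apart, inside LOC9324416. The window from 8759576 to 8760139 scored 9.25 against 2.52 with summits 7 bp apart, inside LOC9324403. Both genes are annotated as protein-coding.

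Of the other 6, 4 on scaffold 2 were named for their ratio and scored 6.87 to 8.15 against partners of 1.04 to 1.22, with summits 3 to 72 bp apart. The remaining 2 had several partners. The scaffold 2 window from 8808512 to 8809838 scored 7.97 and met 4 replicate 1 windows, which scored 1.52 to 1.90. The scaffold 9 window from 1651232 to 1653416 scored 8.70 and met 3, which scored 1.1 to 1.5. In both, the strongest partner was not the nearest, and a weaker one had its summit 15 and 73 bp away. The last named window, on scaffold 1 from 17026475 to 17027505, scored 3.39 and met 3 partners of 1.55 to 2.32, 525 bp from LOC9329922.

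Relative to genes, low-partner windows with a fairly strong partner lay like high-partner windows, and those with the weakest partners lay farther away. Of the 645 summits, 160 (24.8%, 21.6 to 28.3%) were inside an annotated gene and 224 (34.7%, 31.2 to 38.5%) outside but within 1000 bp of one. A further 145 (22.5%) lay over 1000 and up to 3000 bp away and 116 (18.0%, 15.2 to 21.1%) farther. High-partner windows had 20.9% (18.8 to 23.2%) inside, 39.9% (37.3 to 42.5%) within 1000 bp and 15.3% (13.5 to 17.3%) beyond 3000 bp. All replicate 2 windows, of any score, had 31.8, 33.4 and 13.6%, and genes cover 41.2% of the scaffolds.

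The weaker the partner, the fewer summits lay just outside a gene. With partners of 3 to under 4 the share within 1000 bp was 39.8% (34.8 to 44.9%), with 2 to under 3 it was 33.0% (26.9 to 39.8%), and with partners under 2 it was 18.2% (11.5 to 27.5%). The shares beyond 3000 bp were 14.3% (11.0 to 18.3%), 18.5% (13.7 to 24.5%) and 31.8% (23.0 to 42.1%). Windows without a partner continued the order, with 6.82% within 1000 bp and 67.0% (56.7 to 76.0%) beyond 3000 bp. Without the plastid-like stretches, windows with a partner under 2 had 16.9% (9.48 to 28.5%) within 1000 bp and 32.2% (21.7 to 44.9%) beyond 3000 bp, values close to those with the stretches. The intervals of the weakest and strongest low-partner classes did not overlap for either distance with the stretches included. Without the stretches, high-partner windows had 39.9% within 1000 bp and 15.4% beyond 3000 bp, and windows without a partner 7.25% and 71.0%. The middle classes were not computed without them.

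The share inside genes did not follow that order, with 23.2, 29.5 and 20.5% from the strongest to the weakest partners and overlapping intervals. Of the 160 summits inside genes, 59 were within 500 bp of an end of the gene, and the median distance to the nearer end was 671 bp. At replicate 2 scores under 4, 36.2% (32.1 to 40.4%) of low-partner and 45.0% (41.3 to 48.8%) of high-partner summits lay outside a gene within 1000 bp, and these intervals did not overlap. At scores of 4 or more the shares were 29.0% (21.9 to 37.3%) and 34.8% (31.3 to 38.5%), with overlapping intervals. Without strand, the starts and ends of genes were not separated, and genes were placed on scaffolds by their order in the gene table.

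**Figure D5:**
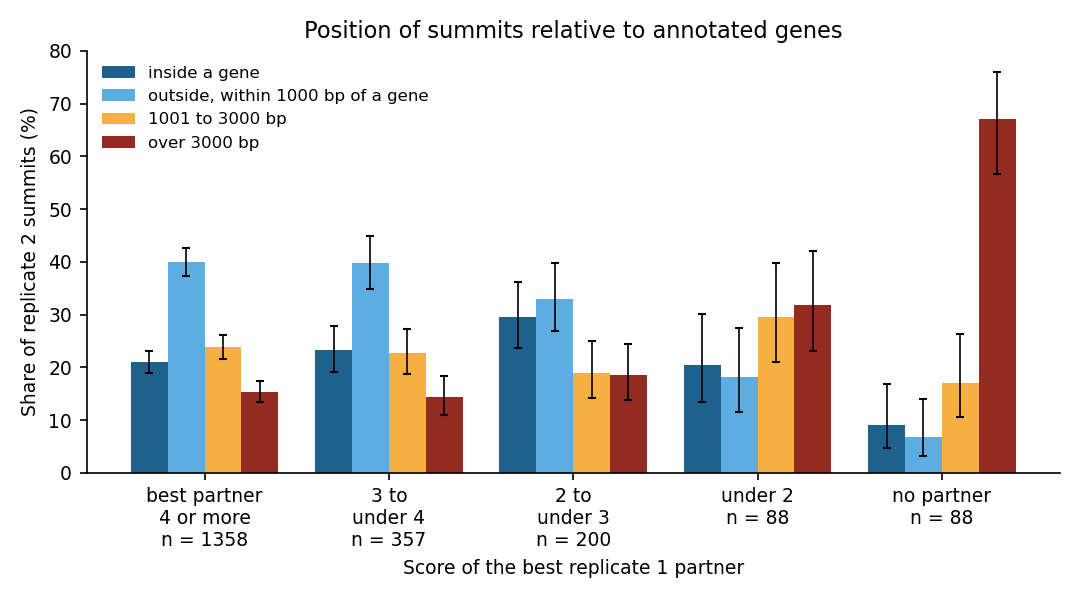
Share of replicate 2 summits (y, %) inside a gene, outside within 1000 bp, over 1000 to 3000 bp and over 3000 bp away, by the score of the best replicate 1 partner (x, with n); bars are shares and lines 95% Wilson intervals. The share within 1000 bp falls from 39.8 to 18.2% across the 3 low-partner classes, and that beyond 3000 bp rises from 14.3 to 31.8%.

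The share of windows with a protein-coding nearest gene was lower among low-partner than among high-partner windows, with and without the stretches. The intervals did not overlap, and the difference itself was not tested. Of all 33239 genes on the scaffolds, 29018 are protein-coding. The share over all replicate 2 windows was not computed, so it is not known which class departs from it. The nearest gene was protein-coding for 539 low-partner windows (83.6%, 80.5 to 86.2%), against 91.8% (90.2 to 93.2%) of high-partner windows. A tRNA gene was nearest for 29 (4.50%, 3.15 to 6.38%), against 0.515% (0.250 to 1.06%), and 23 of these 29 were in the plastid-like stretches. Without the stretches the tRNA shares were 0.993% (0.456 to 2.15%) and 0.443% (0.203 to 0.963%), and the protein-coding shares 87.1% (84.2 to 89.5%) and 92.0% (90.4 to 93.3%). The tRNA intervals then overlapped, and those for protein-coding genes did not. With the stretches included, the protein-coding share was 88.2% (84.5 to 91.2%) for partners of 3 to under 4, which overlapped the high-partner interval. It was 84.5% (78.8 to 88.9%) for 2 to under 3 and 62.5% (52.1 to 71.9%) for partners under 2. Without the stretches it was 78.0% (65.9 to 86.6%) for partners under 2. Long non-coding RNA genes were nearest for 6.67% (4.99 to 8.86%) of low-partner and 5.01% (3.97 to 6.30%) of high-partner windows. Pseudogenes were nearest for 4.19% (2.89 to 6.02%) and 2.65% (1.92 to 3.65%), and transcribed pseudogenes for 7 and 0 windows. Without the stretches, 2 of those 7 were left.

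The share of genes with a high-partner summit was close to that of all genes among those with a low-partner summit. Of 29018 protein-coding genes on the scaffolds, 793 (2.73%) had a low-partner summit inside them or within 3000 bp, and 1795 (6.19%) had a high-partner summit. Both were found at 52 genes, 6.56% of the 793 and 2.9% of the 1795. A single low-partner summit was counted for 773 genes and 2 for 17. The genes with more were LOC9324415 and LOC9324416, with 5 each, and LOC9324403, with 3, and all of them lie in the larger plastid-like stretch of scaffold 2.

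Low-partner windows had another of the 2091 windows nearby slightly more often than high-partner windows, with overlapping intervals. Outside the stretches the shares were nearly equal. Another such summit lay within 10000 bp of 212 of 645 (32.9%, 29.4 to 36.6%), against 27.8% (25.5 to 30.3%) of high-partner windows. Without the stretches the shares were 28.5% (25.0 to 32.2%) and 27.7% (25.4 to 30.2%). By partner score the share was 26.1% for 3 to under 4, 33.0% for 2 to under 3 and 60.2% (49.8 to 69.8%) for partners under 2. Without the stretches it was still 42.4% (30.6 to 55.1%) of 59 for partners under 2.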

How the data were processed

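Windows with a summit and a score came from 2 deposited lists of SEP3 ChIP in A. lyrata inflorescences, 1 per library. The score is the authors' deposited value per window, per the file headers. Widths are deposited in bp. CASAVA is named in the submitters' processing notes, with no version. The aligner, the window caller, its settings and the read depth are not given in the sources used. No window list of the input was used.

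The members, classes and stretches were chosen with earlier results of these data known. Python 3.11.15, pandas 2.3.3 and scipy 1.17.1 were used. Overlap meant at least 1 bp, and the best partner was the 1 of highest score. No test was run, since each cold treatment has 1 ChIP library, and shares have 95% Wilson intervals. The assignment of partners and the distances were checked on simulated windows.

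Genes came from a RefSeq table of assembly v.1.0 without strand or scaffold. Its first 9 blocks of rising start position, with 33239 genes, were taken as scaffolds 1 to 9. The last gene and the last window of a scaffold ended within 31587 bp of each other. Of 1353 high-partner summits, 40.1% lay within 1000 bp outside a gene of their own block, against 18.1% in the other blocks. Scaffolds 1 to 8 hold 1353 of the 1358 high-partner windows, so scaffold 9 was probably outside this check. The placement rests on the table and the files sharing an assembly. The planned gene-function lists and CArG box search were not run, since no gene function or sequence was used here. Named windows were the 10 of highest score, the 10 of highest score ratio and 3 with most partners, ties in number taken by score.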

Additional observations from a re-analysis of the deposited data

How the results depend on the processing

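Of 25 alternatives run over 5 results, 14 left the value inside its interval, or a count within 1.5 times, and 11 moved it. A limit of 3 for the best partner gave 288 windows, of which 28.5% lay within 1000 bp outside a gene and 41.3% had another window within 10000 bp. A replicate 2 score of 4 or more gave 131 windows, of which 84.7% had summits within 200 bp, 29.0% lay within 1000 bp outside a gene and 28.2% had another window of 4 or more within 10000 bp, while 42.7% of the same 131 had another of the 2091 windows there. With protein-coding genes only, 30.5% lay within 1000 bp, and with a limit of 3000 bp 57.2% did. With a limit of 5000 bp, 20.9% had another window nearby. Without the plastid-like stretches, chosen after seeing the data, 604 windows remained and 28.5% had a neighbour. The share inside genes stayed between 22.0 and 27.5% under all 5 alternatives run for it. Stricter limits use fewer windows by construction, and other causes were not tested. The 3 alternatives for the CArG box were not run. Neither library could be left out, since the rule uses both. No paired analysis was possible because each cold treatment has 1 ChIP library and the input gives no windows to compare.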
